A study of Solanum tuberosum with 12 samples.

Results

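Gibberellins are plant hormones that promote stem and leaf growth, and in potato they are known to hold back tuber formation. Active gibberellin is made in steps, in which copalyl diphosphate synthase acts early and 20-oxidases and 3-oxidases act last, while 2-oxidases inactivate it. The receptor GID1 binds active gibberellin and then the DELLA proteins, growth repressors of the GRAS family, which are broken down as a result. Described here are 3 potato transcripts of these steps, chosen by identifier: Ga20 oxidase (PGSC0003DMG400027963, synthesis), Gibberellin 2-oxidase (PGSC0003DMG400027631, breakdown) and a Gibberellin receptor GID1 (PGSC0003DMG400003009, perception). They are 3 of the 6438 transcripts in the deposited lists. All 3 were listed at 3 weeks, and Ga20 oxidase and GID1 were also among the 5571 transcripts listed at 8 weeks. Gibberellin 2-oxidase was not analysed here at 8 weeks.

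RNA came from the upper 5 leaves of Solanum tuberosum cultivar Desiree, raised as plantlets from tissue culture and moved to soil with 12 h of light and 12 h of darkness. High temperature (HT) meant lit hours at 35 °C and dark hours at 29 °C, and normal temperature (NT) meant 22 °C and 16 °C. The 4 groups were HT for 8 weeks, NT for 8 weeks, HT for 3 weeks and NT for 3 weeks, each with 3 poly(A) RNA libraries, and all used the one cultivar. The labels do not say whether libraries of a group came from separate plants, so p-values measure only the spread between these libraries.

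The 12 library totals lay between 52514661 and 66602938 counts. The deposited tables list only transcripts that the authors found changed between HT and NT in these same libraries. A call of HT against NT is therefore not independent evidence, and nearly every tested transcript was called, 97.3% of 5176 at 8 weeks and 97.5% of 1280 at 3 weeks. Listed products of photosynthesis were looked for as leaf markers, but as transcripts selected for change they check the tissue label only in part. At 8 weeks 40 were listed and all 40 were called higher at HT, beside 59.3% over all transcripts. Their summed level was 29596 to 67951 CPM in HT libraries and 9448 to 10739 CPM in NT libraries. Of the 9 listed at 3 weeks, 4 were called higher and 5 lower at HT, beside 60.3% and 37.2% over all transcripts. These 9 summed to 2208 to 2615 CPM in HT and 6524 to 7414 CPM in NT libraries, so the sum hides the split. Some libraries stood apart from the others of their group. Replicate 1 of HT at 8 weeks had 1384 CPM of listed cyclin, kinesin and histone transcripts, which mark dividing tissue. The other HT libraries had 499 and 552 CPM and the NT libraries 386 to 662 CPM. These sums did not follow the calls of that list, given further on. HT replicate 1 of 8 weeks also held the highest photosynthesis sum, 67951 CPM against 29596 and 34395 CPM in the other HT libraries. Its counts differed from theirs by a chi-square of 757 and 580 per transcript, against 157 between those. Replicate 3 of NT at 8 weeks differed from replicates 1 and 2 by 352 and 348, against 94.1 between those, and replicate 1 of NT at 3 weeks from replicates 2 and 3 by 210 and 235, against 32.9. In these bulk samples fewer cells of a type and less RNA per cell cannot be told apart.

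Ga20 oxidase was higher at HT than at NT after 8 weeks and lower at HT than at NT after 3 weeks. At 8 weeks it had 2.23, 4.02 and 2.50 CPM in the HT libraries, against 0.728, 0.276 and 0.684 CPM in the NT libraries (CPM are counts relative to the scaled library totals, on the usual CPM scale). All 3 HT libraries lay above all 3 NT libraries, which was also so for 57.3% of the transcripts listed at 8 weeks. The means were 2.92 ± 0.968 CPM at HT and 0.563 ± 0.249 CPM at NT (SD, n = 3 each), a log2 change of 2.37 ± 0.60 (standard error) or 5.18-fold, with an adjusted p of 0.0069 in edgeR's quasi-likelihood test. The background share of transcripts called higher at 8 weeks was 59.3%, and 1826 of 5176 transcripts had a change at least as large.

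At 3 weeks the 20-oxidase had 1.65, 2.50 and 2.70 CPM in the HT libraries, against 11.9, 18.7 and 25.1 CPM in the NT libraries. Here every HT library lay below every NT library, as for 30.5% of the transcripts listed at 3 weeks. It averaged 2.28 ± 0.553 CPM at HT and 18.6 ± 6.57 CPM at NT (SD, n = 3 each), and the log2 change was -3.02 ± 0.38, 8.13-fold lower at HT, with an adjusted p of 0.0010 from edgeR. The share of transcripts called lower at 3 weeks was 37.2%, and 67 of 1280 transcripts fell by as much or more. In the authors' deposited table its log2 fold change was 2.37 at 8 weeks and -3.03 at 3 weeks. The totals used here were scaled to the authors' fold changes on the same counts, so those values are no separate check.

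The difference between the heat effects of the 20-oxidase at 8 and 3 weeks was tested as an interaction over all 12 libraries and came to 5.40 ± 0.72 on the log2 scale (95% interval 3.84 to 6.95, adjusted p = 0.00034, edgeR). Of the 576 transcripts tested for this difference, 15.8% were called with a larger log2 change at 8 weeks, 33.7% were called in either direction, and 23 had a difference of at least that of Ga20 oxidase. With each of the 12 libraries left out in turn the difference stayed between 5.07 and 5.63. Only transcripts that the authors listed at both ages entered this test. Each had been selected in these same libraries for a change of 1.5 or more, up or down, on the log2 scale. A transcript listed with opposite signs at the 2 ages thus had a large difference before any test. The p-value and the range for Ga20 oxidase are therefore not independent evidence of a reversal. Among the 467 transcripts called at both ages, 47 (10.1%) were higher at HT at 8 weeks and lower at 3 weeks, as Ga20 oxidase was. The opposite reversal was seen for 68 (14.6%), while 224 (48.0%) were higher at both ages and 128 (27.4%) were lower at both.

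**Figure D1:**
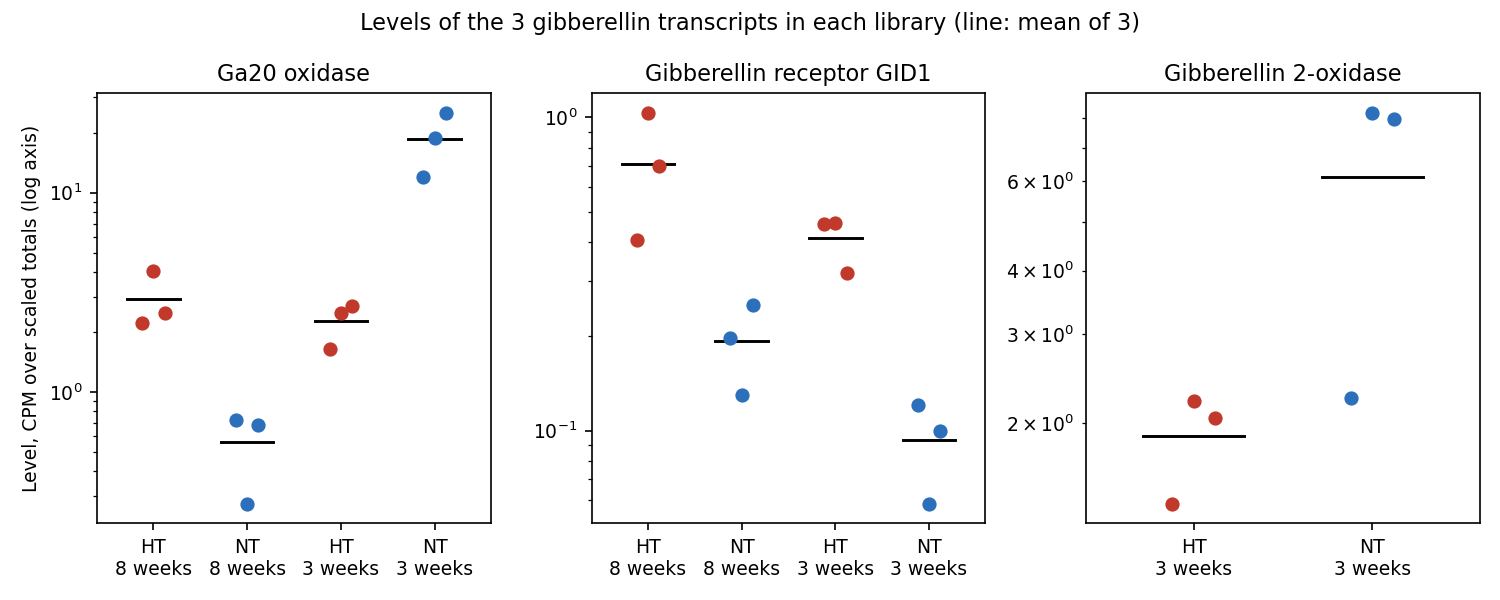
Level of each of the 3 gibberellin transcripts in each library, in CPM over scaled library totals on a log axis, with HT libraries in red, NT libraries in blue and a line at the mean of 3. Ga20 oxidase at HT lies above NT at 8 weeks and below NT at 3 weeks, GID1 at HT lies above NT at both ages, and 1 NT library of Gibberellin 2-oxidase, at 2.23 CPM, lies close to the HT libraries.

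Between the ages the 20-oxidase differed at NT. For comparisons of ages the library totals were used without the scaling between HT and NT. On these totals Ga20 oxidase averaged 0.544 ± 0.241 CPM at 8 weeks and 16.1 ± 5.72 CPM at 3 weeks in NT leaves (SD, n = 3 each). This was a log2 difference of -4.89 ± 0.56 (95% interval -6.10 to -3.67, adjusted p = 2.5e-05, edgeR), where 14.9% of 576 transcripts were called lower at 8 weeks. Of these 576, 40 had a difference as low or lower. In HT leaves it averaged 3.02 ± 1.001 CPM at 8 weeks and 2.62 ± 0.636 CPM at 3 weeks, a log2 difference of 0.20 ± 0.47 that did not pass the test (95% interval -0.83 to 1.23, adjusted p = 0.83, edgeR); 7.47% of the 576 were called in either direction at HT and 46.2% at NT. The 43 calls at HT became 8 to 11 without any 1 HT library of 3 weeks, 27 without HT replicate 2 of 8 weeks and 104 without HT replicate 1 of 8 weeks. Ordered by level, NT at 3 weeks stood highest and apart from the rest, HT at 8 weeks and HT at 3 weeks were not separated beyond their spread, and NT at 8 weeks was lowest. Age, harvest and sequencing run cannot be told apart, since the labels name no batch. Only transcripts that the authors listed at both ages, for heat changes in these same libraries, were tested between ages. Listed with opposite signs, Ga20 oxidase had to differ between the ages at HT, at NT or at both. Its p-value at NT is therefore not independent evidence of an age difference.

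Gibberellin 2-oxidase was lower at HT than at NT after 3 weeks. It had 1.38, 2.21 and 2.04 CPM in the HT libraries, against 2.23, 8.19 and 7.97 CPM in the NT libraries. Every HT library lay below every NT library, as for 30.5% of the transcripts listed at 3 weeks. However, NT replicate 1 lay barely above the highest HT library. On totals without the scaling this replicate had 1.94 CPM, within the HT range of 1.59 to 2.54 CPM. The log2 change was -1.71 ± 0.51, 3.26-fold lower at HT, with an adjusted p of 0.013 from edgeR. Over all transcripts tested at 3 weeks 37.2% were called lower. The change did not pass when the edgeR p-value was adjusted over the number of the authors' tests (adjusted p = 0.35). The authors' own adjusted p for it, from a test not named, was 1.2e-05.

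The size of the 2-oxidase change rested on single libraries. Without NT replicate 1 it was -2.10 on the log2 scale with an adjusted p of 0.00041 (edgeR), and without HT replicate 1 it was -1.53 with an adjusted p of 0.052, which did not pass. NT replicate 1 stood out in other transcripts too. Of the 476 transcripts called lower at 3 weeks, 63 had replicate 1 as the only NT library within or below the range of the HT libraries in CPM over scaled totals, against 2 for replicate 2 and 7 for replicate 3. What set this library apart was not tested.

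The GID1 receptor transcript was low in every library and was higher at HT at both ages. At 8 weeks it had 0.405, 1.03 and 0.698 CPM in the HT libraries, against 0.197, 0.130 and 0.252 CPM in the NT libraries. These levels rest on 24, 71 and 43 counts at HT and 10, 8 and 14 counts at NT. The lowest HT library exceeded the highest NT library, as for 57.3% of the transcripts listed at 8 weeks. The log2 change was 1.88 ± 0.63, 3.67-fold, with an adjusted p of 0.020 from edgeR, where 59.3% of all transcripts were called higher. The call was lost without HT replicate 2 (1.51, adjusted p = 0.092), HT replicate 3 (1.89, 0.052), NT replicate 1 (1.89, 0.059) or NT replicate 2 (1.66, 0.069), each from edgeR. It was also lost with DESeq2 size factors (0.68, adjusted p = 0.38) and when adjusted over the number of the authors' tests (adjusted p = 0.13, edgeR). The authors' own adjusted p at 8 weeks, from a test not named, was 0.033.

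At 3 weeks GID1 had 0.457, 0.459 and 0.318 CPM in the HT libraries, against 0.121, 0.0585 and 0.0998 CPM in the NT libraries. The counts were 34, 32 and 21 at HT and 6, 3 and 5 at NT, and the HT libraries again lay above the NT libraries, as for 59.4% of the transcripts listed at 3 weeks. Over all transcripts tested at 3 weeks 60.3% were called higher. The log2 change was 2.12 ± 0.46, 4.36-fold, with an adjusted p of 0.0044 from edgeR, and it passed without each library in turn. It did not pass with DESeq2 size factors (0.94, adjusted p = 0.15) or adjusted over the number of the authors' tests (adjusted p = 0.12, edgeR). The authors' own adjusted p at 3 weeks, from a test not named, was 0.0064. The heat effects at 8 and 3 weeks differed by -0.25 ± 0.73 on the log2 scale (95% interval -1.83 to 1.34, adjusted p = 0.89, edgeR). This interval leaves room for a difference of more than 2-fold in either direction. On totals without the scaling its order of level was HT at 8 weeks (0.735 ± 0.324 CPM), HT at 3 weeks (0.473 ± 0.0930), NT at 8 weeks (0.187 ± 0.0592) and NT at 3 weeks (0.0810 ± 0.0276; SD, n = 3 each). Between the ages the receptor did not pass the test at HT (0.64 ± 0.50, adjusted p = 0.49) or at NT (1.18 ± 0.58, adjusted p = 0.11, edgeR).

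**Figure D2:**
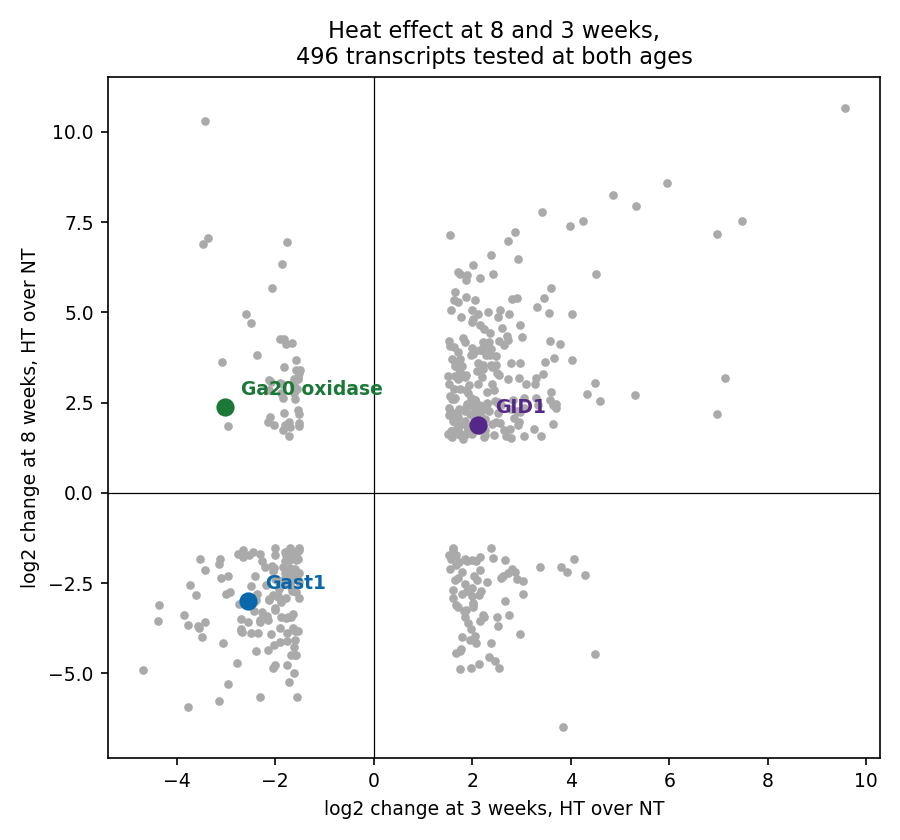
Log2 change of HT over NT at 8 weeks (vertical) and 3 weeks (horizontal) for the 496 transcripts tested at both ages, each a grey point. Ga20 oxidase lies in the quadrant of higher at 8 weeks and lower at 3 weeks, with 48 of the 496 transcripts, GID1 lies among those higher at both ages and Gast1 among those lower at both; the empty bands near 0 come from the authors' selection of changed transcripts.

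Other transcripts were sought by patterns on the product names. The pattern for receptors and DELLA signalling took any GRAS or SCARECROW name, which alone does not place a transcript in the gibberellin pathway. At 8 weeks 30 transcripts of the synthesis, breakdown, perception and response lists were listed, the members included. They are called gibberellin transcripts here. Of the 29 tested, 17 were called higher and 10 lower at HT, with a median log2 change of 1.88, beside 1.80 over all 5176 transcripts tested. Lower calls made up 38.0% over all transcripts. At 3 weeks 12 were listed and tested, 7 were called higher and 4 lower, and the median was 1.70, beside 1.66 over all 1280. The background share of higher calls at 3 weeks was 60.3%. The shares called at both ages were thus near those of all listed transcripts. Without HT replicate 1, 16 were called higher and 11 lower at 8 weeks, without NT replicate 3, 16 and 10, and without NT replicate 1, 12 and 8. At 3 weeks 7 were called higher and 4 lower also without NT replicate 1.

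These splits depended on the scaling. With DESeq2 size factors estimated on the listed transcripts alone, the median of all tested transcripts moved to 0.47 at 8 weeks and 0.43 at 3 weeks. The gibberellin transcripts then had 4 higher and 12 lower calls at 8 weeks and 2 higher and 4 lower calls at 3 weeks. Over all transcripts the calls were 1179 higher and 2102 lower at 8 weeks and 155 higher and 507 lower at 3 weeks on that scaling. Ga20 oxidase at 8 weeks (1.13, adjusted p = 0.13) and GID1 at both ages kept their sign and did not pass, while the lower calls of Ga20 oxidase and Gibberellin 2-oxidase at 3 weeks and the interaction of Ga20 oxidase passed (edgeR with those factors).

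**Figure D3:**
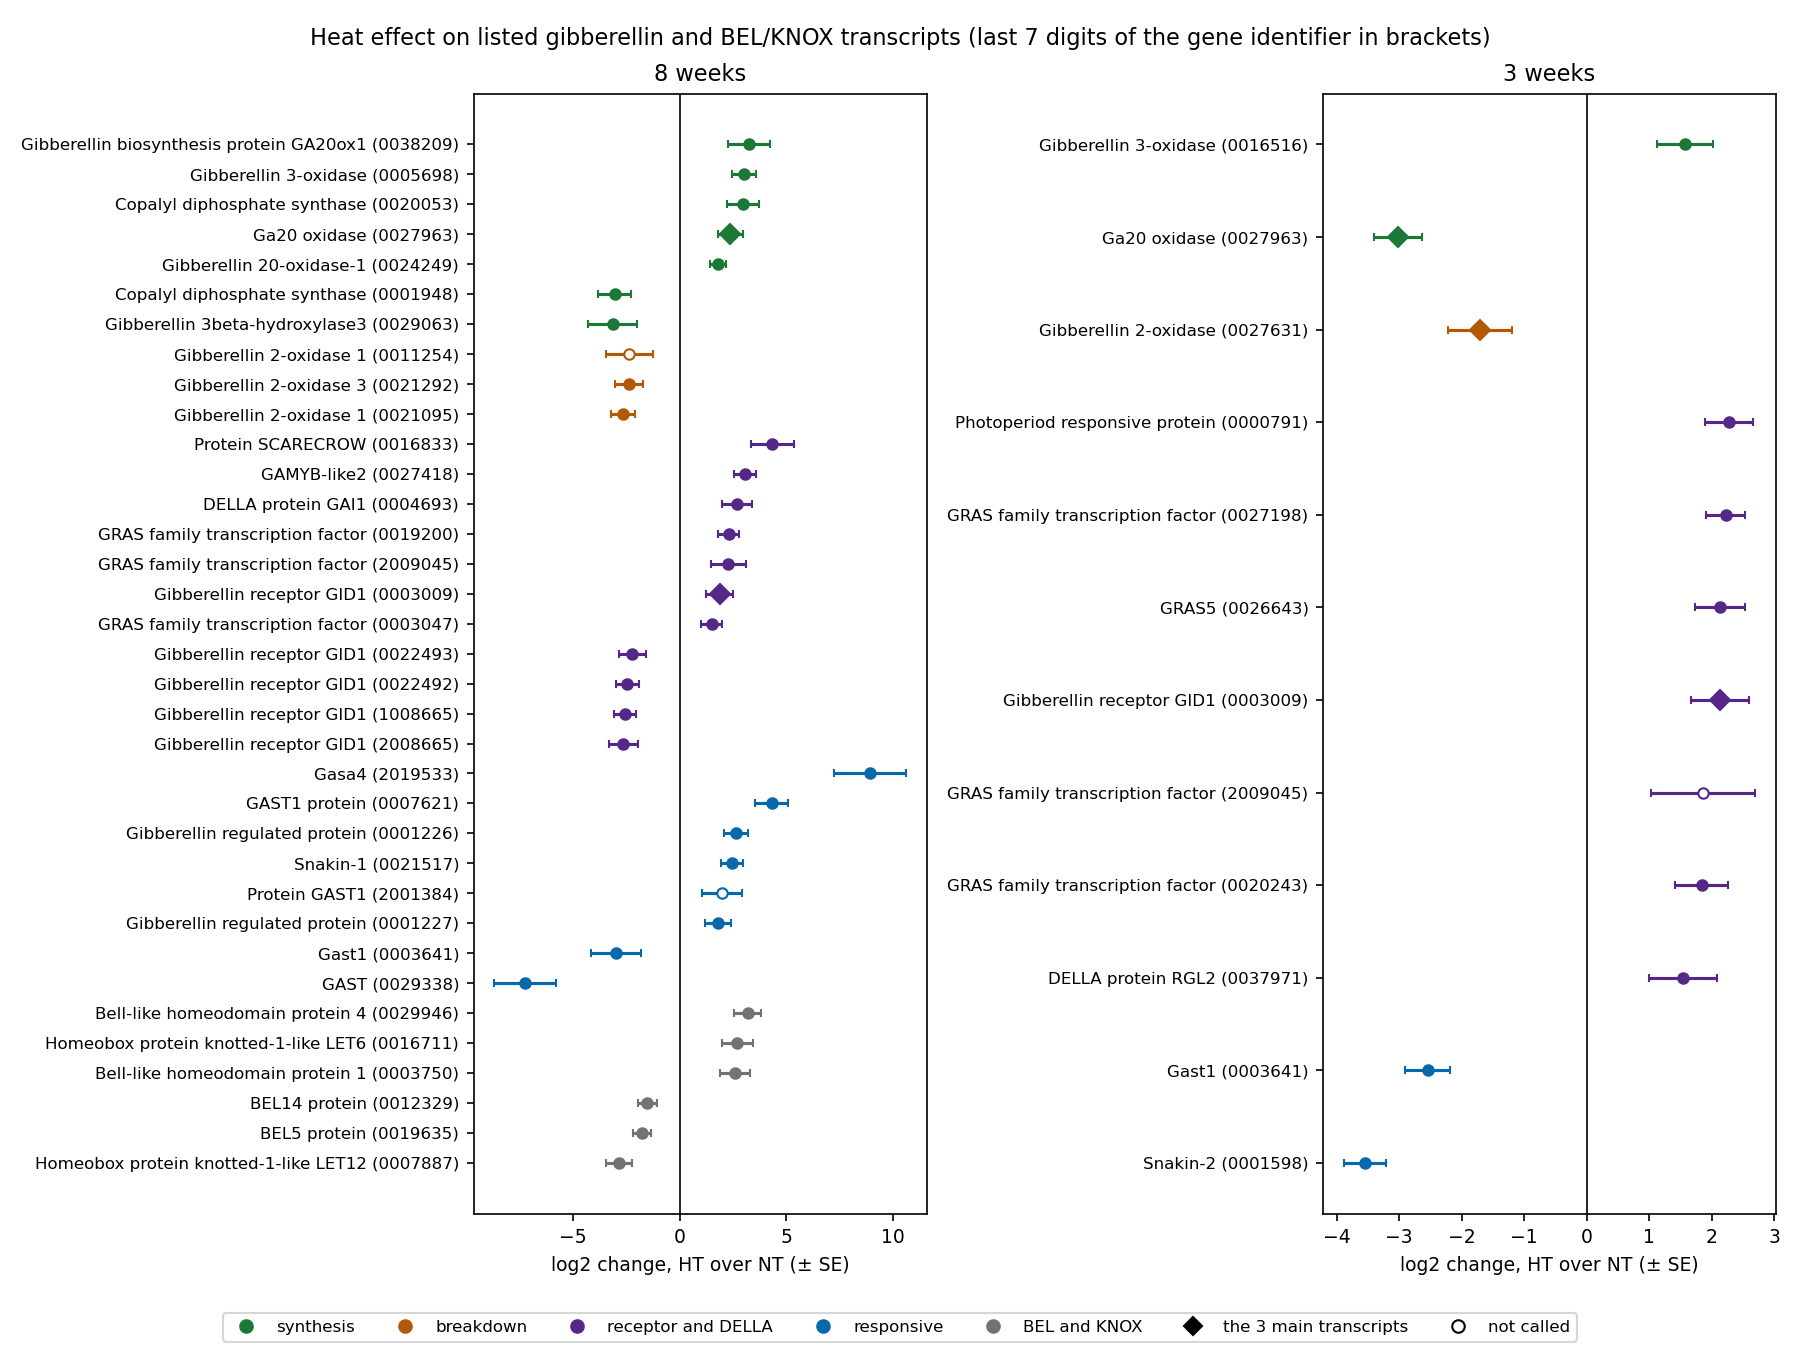
Log2 change of HT over NT with its standard error for each tested transcript of the gibberellin lists and of the BEL and KNOX list at 8 weeks (left, 35 transcripts) and 3 weeks (right, 12 transcripts), coloured by role. Diamonds mark Ga20 oxidase, Gibberellin 2-oxidase and GID1, open points did not pass the test, and the 20-oxidases lie right of 0 and the 2-oxidases left of 0 at 8 weeks.

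Of 7 synthesis transcripts tested at 8 weeks, 5 were called higher and 2 lower at HT, beside 59.3% higher and 38.0% lower over all transcripts, and with DESeq2 size factors 1 was higher and 3 were lower. All 3 listed 20-oxidases rose, and none of them passed with DESeq2 size factors. Gibberellin 20-oxidase-1 (PGSC0003DMG400024249) carried most of their signal, at 45.7, 36.9 and 46.6 RPKM in the HT libraries, against 13.5, 8.89 and 14.4 RPKM in the NT libraries, with no overlap (RPKM are CPM per kilobase of transcript). Such separation with HT above was seen for 57.3% of the transcripts listed at 8 weeks. The log2 change of 20-oxidase-1 was 1.81 ± 0.38 (adjusted p = 0.0035, edgeR). GA20ox1 (PGSC0003DMG400038209) averaged 0.822 ± 0.392 RPKM at HT and 0.0826 ± 0.0853 RPKM at NT (SD, n = 3 each), a log2 change of 3.25 ± 0.98 (adjusted p = 0.013, edgeR). It did not pass without NT replicate 1 (3.21, adjusted p = 0.050) and was 4.35 without NT replicate 2. Summed per library, the 3 transcripts reached 40.9 to 49.7 RPKM at HT and 9.27 to 14.9 RPKM at NT. Ga20 oxidase made up 3.51% to 7.43% of that sum at HT and 2.24% to 3.88% at NT, so the ranges of its share overlapped. Only 20-oxidases listed as changed entered the sum.

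The enzymes before and after the 20-oxidases changed in both directions at 8 weeks. Gibberellin 3-oxidase (PGSC0003DMG400005698), which makes active gibberellin, had 6.39, 4.48 and 4.29 RPKM in the HT libraries, against 1.03, 0.395 and 0.452 RPKM in the NT libraries. It rose by 3.01 ± 0.56 on the log2 scale (adjusted p = 0.0027, edgeR), where 59.3% of all transcripts were called higher. Every HT library lay above every NT library, as for 57.3% of the transcripts listed at 8 weeks. Gibberellin 3beta-hydroxylase3 (PGSC0003DMG400029063), named for the same reaction, averaged 0.509 ± 0.491 RPKM at HT and 4.55 ± 2.87 RPKM at NT and was lower by -3.15 ± 1.14 on the log2 scale (adjusted p = 0.026, edgeR). Its call was lost without NT replicate 1 (adjusted p = 0.080) or NT replicate 2 (adjusted p = 0.064), and its change was -4.08 without HT replicate 2. Copalyl diphosphate synthase, the early enzyme, was listed as 3 transcripts. The abundant one (PGSC0003DMG400001948) had 1.26, 13.4 and 10.9 RPKM at HT, against 50.4, 85.4 and 74.8 RPKM at NT, a log2 change of -3.04 ± 0.78 (adjusted p = 0.0072, edgeR). Its HT level was lowest in replicate 1, the library with the high dividing-tissue sum. The second (PGSC0003DMG400020053) averaged 0.125 ± 0.0449 RPKM at HT and 0.0154 ± 0.0081 RPKM at NT and rose by 2.97 ± 0.74 (adjusted p = 0.0065, edgeR), on 1 to 3 counts per NT library. The third (PGSC0003DMG400024137) had 0, 0 and 2 counts at HT, against 16, 8 and 12 counts at NT, and was not tested for low counts. At 3 weeks the only synthesis transcript listed beside Ga20 oxidase was another Gibberellin 3-oxidase (PGSC0003DMG400016516), which rose by 1.57 ± 0.45 at HT (0.416 ± 0.115 RPKM at HT and 0.139 ± 0.0484 RPKM at NT, adjusted p = 0.011, edgeR). This 3-oxidase was not called higher with TMM or with DESeq2 size factors.

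Of 3 breakdown transcripts tested at 8 weeks, 2 were called lower at HT, beside 38.0% over all transcripts. Gibberellin 2-oxidase 1 (PGSC0003DMG400021095) had 0.226, 0.227 and 0.375 RPKM in the HT libraries, against 2.25, 1.14 and 1.87 RPKM in the NT libraries. It fell by 2.66 on the log2 scale (standard error 0.58, adjusted p = 0.0041, edgeR). Gibberellin 2-oxidase 3 (PGSC0003DMG400021292) had 1.09, 0.965 and 1.38 RPKM at HT, against 11.5, 4.39 and 2.13 RPKM at NT, a log2 change of -2.39 ± 0.66 (adjusted p = 0.0094, edgeR). Its change was -1.51 without NT replicate 1, still called. A second Gibberellin 2-oxidase 1 (PGSC0003DMG400011254) had 0.323, 0.657 and 0.286 RPKM at HT, against 3.56, 2.90 and 0.0690 RPKM at NT. NT replicate 3 was the lowest of the 6 libraries, and the change of -2.36 ± 1.10 did not pass (adjusted p = 0.064, edgeR). Without that replicate it was -2.93 (adjusted p = 0.0081). The sum of the 3 transcripts was 1.64 to 2.04 RPKM at HT and 4.07 to 17.3 RPKM at NT. At 3 weeks the member Gibberellin 2-oxidase was the only breakdown transcript listed.

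**Figure D4:**
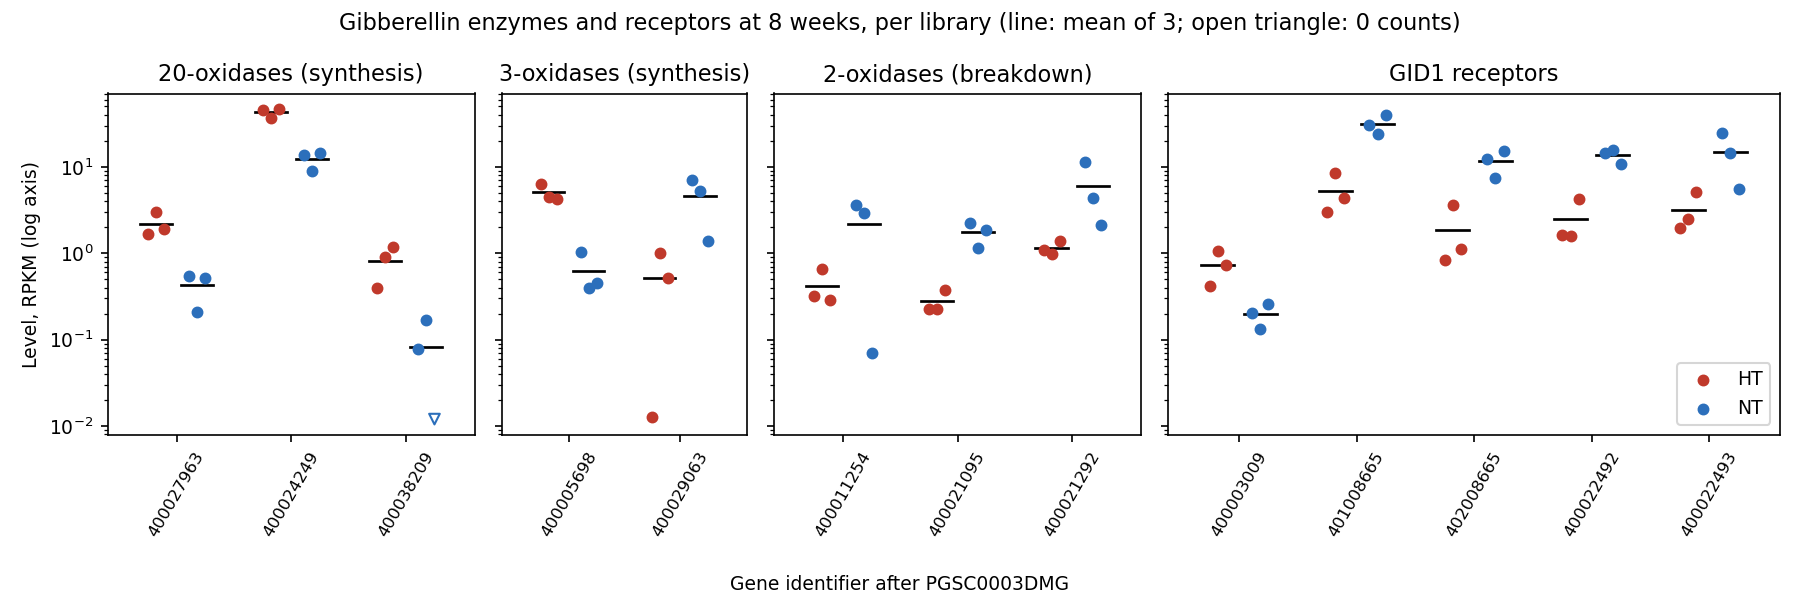
Level of each listed 20-oxidase, 3-oxidase, 2-oxidase and GID1 receptor transcript in each library at 8 weeks, in RPKM on a log axis, with HT in red left of NT in blue, a line at the mean of 3 and an open triangle for a library with 0 counts. The GID1 transcript PGSC0003DMG400003009 has the lowest mean of the 5 receptors at HT and at NT and is the only one of them with HT above NT.

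Receptors were split at 8 weeks, when 5 transcripts named GID1 were listed. The member rose, as above, and the other 4 fell. PGSC0003DMG401008665 had 2.97, 8.57 and 4.39 RPKM in the HT libraries, against 30.2, 23.8 and 39.2 RPKM in the NT libraries, and its log2 change was -2.55 ± 0.52 (adjusted p = 0.0033, edgeR). PGSC0003DMG402008665 changed by -2.64 ± 0.67, PGSC0003DMG400022492 by -2.45 ± 0.54 and PGSC0003DMG400022493 by -2.22 ± 0.64 (adjusted p = 0.0070, 0.0043 and 0.011 in that order, edgeR). The last lost its call without NT replicate 1 (-1.64, adjusted p = 0.051). In each of the 4 every HT library lay below every NT library, as for 36.2% of the transcripts listed at 8 weeks. PGSC0003DMG402008665 was -3.58 without HT replicate 2 and PGSC0003DMG400022492 -3.09 without HT replicate 3. How reads were divided among such like-named transcripts is not given in the sources used here, so their separate values are uncertain.

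Summed per library, the 5 receptors reached 7.80 to 17.3 RPKM at HT and 61.3 to 81.6 RPKM at NT. The member supplied 4.63% to 6.14% of that sum at HT and 0.219% to 0.366% at NT. A rise in the member thus went with a lower sum of the listed receptors. A GID1 transcript that did not change would not be listed, so the sum is not the whole receptor level. With DESeq2 size factors 0 of the 5 were called higher and 4 lower. At 3 weeks the member was the only GID1 listed.

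Beside the receptors, the 6 listed DELLA, GRAS and GAMYB transcripts were called higher at HT at 8 weeks, where 59.3% of all transcripts were. With DESeq2 size factors 2 of them, SCARECROW and GAMYB-like2, were called. DELLA protein GAI1 (PGSC0003DMG400004693), a repressor of gibberellin responses, had 16, 17 and 20 counts in the HT libraries, against 1, 2 and 4 counts in the NT libraries. It rose by 2.69 ± 0.71 (adjusted p = 0.0079, edgeR), or 3.31 without NT replicate 3. Protein SCARECROW (PGSC0003DMG400016833), a GRAS regulator of root and leaf tissue layers in Arabidopsis, had 3.56, 0.451 and 0.591 RPKM at HT, against 0.0664, 0.0328 and 0.127 RPKM at NT. Its log2 change of 4.33 ± 1.005 (adjusted p = 0.0051, edgeR) became 2.78 without HT replicate 1, the library with the high dividing-tissue sum, and 4.94 without NT replicate 3. GAMYB-like2 (PGSC0003DMG400027418), named for a MYB factor that acts in gibberellin responses of cereals, averaged 2.59 ± 0.821 RPKM at HT and 0.311 ± 0.0614 RPKM at NT and rose by 3.06 ± 0.52 (adjusted p = 0.0021, edgeR). The remaining 3 were GRAS family transcription factors that rose by 1.498 ± 0.50 (PGSC0003DMG400003047), 2.28 ± 0.80 (PGSC0003DMG402009045) and 2.30 ± 0.49 (PGSC0003DMG400019200). The first lost its call without NT replicate 1 or 3, and the second without HT replicate 3, NT replicate 1 or NT replicate 3, with 3.23 without NT replicate 2.

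At 3 weeks 7 transcripts matched the pattern for receptors and DELLA signalling, with RGL2 the only named DELLA. Of these, 6 were called higher, the GID1 member among them, beside 60.3% over all transcripts. Of the 7, 5 were called higher with TMM and 2 with DESeq2 size factors. DELLA protein RGL2 (PGSC0003DMG400037971) had 0.341, 0.418 and 0.605 RPKM in the HT libraries, against 0.255, 0.0618 and 0.152 RPKM in the NT libraries. Its rise of 1.53 ± 0.54 (adjusted p = 0.025, edgeR) was lost without HT replicate 2, HT replicate 3, NT replicate 2 or NT replicate 3 (adjusted p = 0.055, 0.090, 0.055 and 0.061). Photoperiod responsive protein (PGSC0003DMG400000791) averaged 16.2 ± 7.04 RPKM at HT and 3.36 ± 0.596 RPKM at NT and rose by 2.27 ± 0.38. GRAS5 (PGSC0003DMG400026643) rose by 2.13 ± 0.39, and the GRAS family transcription factors PGSC0003DMG400020243 and PGSC0003DMG400027198 by 1.84 ± 0.43 and 2.22 ± 0.31. The GRAS transcript PGSC0003DMG402009045, listed at both ages, had a log2 change of 1.86 ± 0.84 at 3 weeks that did not pass (adjusted p = 0.059, edgeR) but passed without HT replicate 3 (2.35, 0.021) or NT replicate 2 (2.70, 0.034). Its interaction, 0.42 ± 1.23, did not pass (95% interval -2.26 to 3.10, adjusted p = 0.89, edgeR).

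Gibberellin-responsive transcripts of the GAST, GASA and snakin family, small cysteine-rich proteins, were called higher in 5 and lower in 2 of 8 at 8 weeks, near the 59.3% and 38.0% over all transcripts. Of the 7 tested with DESeq2 size factors, 1 was higher and 2 were lower. GAST1 protein (PGSC0003DMG400007621) had 216, 45.2 and 53.0 RPKM in the HT libraries, against 3.39, 4.06 and 8.48 RPKM in the NT libraries. Its rise of 4.30 ± 0.76 (adjusted p = 0.0023, edgeR) was 3.21 without HT replicate 1, the highest library. Snakin-1 (PGSC0003DMG400021517), an antimicrobial peptide of potato, had 115, 71.5 and 110 RPKM at HT, against 16.4, 8.89 and 28.6 RPKM at NT, and rose by 2.46 ± 0.51 (adjusted p = 0.0036, edgeR). Gasa4 (PGSC0003DMG402019533) had 128, 47 and 12 counts at HT and 0 in every NT library, at least 56.7-fold higher against a floor of 3 counts over the NT group. Its HT level too was highest in replicate 1, and without that library it was at least 24.6-fold higher. The transcripts named Gibberellin regulated protein rose by 2.63 ± 0.56 (PGSC0003DMG400001226) and 1.79 ± 0.61 (PGSC0003DMG400001227), and the second lost its call without HT replicate 1 (1.03, adjusted p = 0.053), NT replicate 1 (1.70, 0.067) or NT replicate 2 (1.63, 0.068, edgeR). Protein GAST1 (PGSC0003DMG402001384) did not pass (1.99 ± 0.94, adjusted p = 0.065, edgeR), with HT replicate 1 at 46.5 RPKM and the other HT libraries at 7.502 and 10.3 RPKM, against 1.77, 2.32 and 12.1 RPKM at NT. Without HT replicate 1 it was 0.73, and it passed without HT replicate 2, HT replicate 3 or NT replicate 3 (2.40, 2.32 and 3.39).

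The 2 responsive transcripts that fell at 8 weeks were GAST and Gast1. GAST (PGSC0003DMG400029338) had 0, 6 and 1 counts at HT, against 468, 459 and 21 counts at NT, and its log2 change was -7.23 ± 1.46 (adjusted p = 0.0032, edgeR) with all libraries and -9.09 without HT replicate 2. Gast1 (PGSC0003DMG400003641) had 0.607, 0.358 and 0 RPKM at HT, against 1.04, 1.41 and 5.32 RPKM at NT, a log2 change of -3.00 ± 1.17 (adjusted p = 0.034, edgeR). Its call was lost without HT replicate 2 (-3.08), NT replicate 2 (-3.29) or NT replicate 3 (-1.92), and its change was -3.80 without HT replicate 1. At 3 weeks both listed responsive transcripts were called lower, beside 37.2% over all transcripts. Gast1 had 0.764, 1.06 and 0.717 RPKM at HT, against 3.66, 5.43 and 5.79 RPKM at NT, a log2 change of -2.54 ± 0.36 (adjusted p = 0.0012, edgeR). Snakin-2 (PGSC0003DMG400001598) averaged 8.90 ± 1.31 RPKM at HT and 104 ± 36.4 RPKM at NT and changed by -3.55 ± 0.34 (adjusted p = 0.00046, edgeR). The interaction of Gast1, -0.45 ± 1.23, did not pass (95% interval -3.12 to 2.21, adjusted p = 0.88, edgeR).

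BEL and KNOX homeobox proteins act in pairs, and in potato BEL5 with a KNOX partner is known to lower gibberellin synthesis and to favour tubers. At 8 weeks 6 were listed, with 3 higher and 3 lower at HT, beside 59.3% and 38.0% over all transcripts, and none was listed at 3 weeks. Bell-like homeodomain protein 4 alone was higher with DESeq2 size factors, and 3 were lower. BEL5 protein (PGSC0003DMG400019635) had 19.1, 45.8 and 42.9 RPKM in the HT libraries, against 126, 132 and 110 RPKM in the NT libraries. All HT libraries lay below NT, as for 36.2% of the transcripts listed at 8 weeks. The log2 change of BEL5 was -1.77 ± 0.44 (adjusted p = 0.0064, edgeR). BEL14 protein (PGSC0003DMG400012329) averaged 27.4 ± 12.4 RPKM at HT and 79.0 ± 3.79 RPKM at NT and changed by -1.53 ± 0.45 (adjusted p = 0.011, edgeR). Homeobox protein knotted-1-like LET12 (PGSC0003DMG400007887) averaged 1.25 ± 0.736 RPKM at HT and 9.09 ± 3.24 RPKM at NT and changed by -2.86 ± 0.62. LET6 (PGSC0003DMG400016711), Bell-like homeodomain protein 1 (PGSC0003DMG400003750) and Bell-like homeodomain protein 4 (PGSC0003DMG400029946) rose by 2.70 ± 0.71, 2.59 ± 0.69 and 3.18 ± 0.65, to means of 0.875, 0.303 and 1.61 RPKM at HT, against 0.133, 0.0490 and 0.177 RPKM at NT, and LET6 by 3.36 without NT replicate 3. These 3 were highest, and BEL5, BEL14 and LET12 lowest, in HT replicate 1.

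Values that moved with these changes were set beside them, and their part in the results was not tested. At 8 weeks 68 dividing-tissue transcripts were listed, and 65 of 66 tested were called higher at HT, beside 59.3% over all transcripts. Only 12 were called higher, and 1 lower, with DESeq2 size factors. The sums given above did not follow the calls, since HT replicates 2 and 3, at 499 and 552 CPM, lay within the NT range of 386 to 662 CPM. The sum therefore does not stand for the list as a whole. At 3 weeks 6 were listed and 5 tested, and 1 was called higher and 4 lower, beside 60.3% and 37.2% over all transcripts. The sum of the 6 was 27.5 to 36.5 CPM at HT and 79.6 to 112 CPM at NT. Ga20 oxidase was lowest of the HT libraries in the one with the high dividing-tissue sum, and without it the log2 change of the 20-oxidase at 8 weeks was 2.54, within a range of 2.04 to 2.60 over the 6 libraries left out in turn. Patatins, storage proteins of tubers, were listed as 8 transcripts at 8 weeks. Of the 7 tested, 5 were called higher and 2 lower at HT, beside 59.3% and 38.0% over all transcripts. Their sums were 99.4 to 246 CPM at HT, the highest in replicate 1, and 56.0 to 77.2 CPM at NT. The 1 patatin listed at 3 weeks was called lower, beside 37.2% over all transcripts. It had 4.06 to 6.09 CPM at HT and 8.597 to 26.1 CPM at NT. Other 2-oxoglutarate and related dioxygenases, the enzyme class to which these oxidases belong, had 14 higher and 7 lower calls of 21 tested at 8 weeks, and 9 higher and 4 lower of 13 at 3 weeks, beside 59.3% and 60.3% higher over all transcripts. They had 10 higher and 9 lower calls of 23 with DESeq2 size factors at 8 weeks and 2 higher and 4 lower at 3 weeks.

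Transcripts most like each member were ranked by the root mean square difference of log2(CPM + 0.5), each taken relative to the NT mean of its age. For Ga20 oxidase, over 12 libraries and 418 named candidates, the nearest were Pectinesterase (PGSC0003DMG402019255, 0.635), a C2H2L domain class transcription factor (PGSC0003DMG402024472, 0.682) and a second Pectinesterase (PGSC0003DMG400019256, 0.748), where the median candidate was at 2.16. All 3 had a positive log2 change at 8 weeks (1.87, 3.61 and 2.17) and a negative one at 3 weeks (-1.80, -3.09 and -1.51). The ranking used these same HT and NT levels, so the shared signs follow from it and are no separate result. For Gibberellin 2-oxidase, over 6 libraries and 1006 candidates, the nearest were Pti4 (PGSC0003DMG400016006, 0.109), Sugar transporter ERD6-like 16 (PGSC0003DMG400006285, 0.120) and a Ubiquitin family protein (PGSC0003DMG400012641, 0.136), beside a median of 1.49. For GID1 they were Heat shock 70 kDa protein (PGSC0003DMG400003246, 0.172), Transketolase (PGSC0003DMG400014756, 0.175) and Type II DNA topoisomerase VI subunit B (PGSC0003DMG400026817, 0.177), beside a median of 1.42. The levels of GID1 at NT lie below the added 0.5 CPM, which draws low transcripts together, so its likeness is a coarse one. Pti4 is a transcription factor of the ethylene response family, and pectinesterases modify cell wall pectin.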

How the data were processed

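Leaf poly(A) RNA was made into strand-specific libraries, per the labels' protocols. Not given in the sources used here are aligner, counting program, software versions and genome build. The authors deposited a table for each age and a table of 580 transcripts shared by both, whose counts repeat the other tables. Tests started from the raw counts deposited for each library. The deposited group means are plain means of counts, a signal not tested here, and the deposited maximum group mean is in RPKM. The authors' log2 fold changes, signed fold change (a score), p-values and adjusted p-values were deposited with no tool named. Listed transcripts had absolute log2 fold changes of at least 1.5 and p-values under 0.01.

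Library totals were solved from deposited RPKM, counts and transcript length. The authors' log2 fold changes departed from those on these totals by a constant -0.40 at 3 weeks and -0.10 at 8 weeks. The totals were scaled by it for comparisons of HT with NT, and left unscaled between ages. Listed counts made up 1.76% to 23.2% of a library, so they give no library sizes. The test was edgeR 4.0.16 in R 4.3.3, a quasi-likelihood F test after filterByExpr, adjusted by Benjamini-Hochberg over all transcripts tested at a threshold of 0.05. It was run for each age over its listed transcripts, and for the interaction and the age effects over the shared ones. A standard error is the log2 change without its sign, divided by the square root of F. The floor for a group with no counts was 3 counts. DESeq2 1.42.0 was an alternative, with other scalings (TMM and DESeq2 size factors over the listed transcripts), no filter, a replicate term, stricter adjustment and each library left out. The scripts were tested on simulated data.

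The members and lists were chosen with earlier results of these data known. Lists were patterns on product names. Matches to parts of other words (integrase for GRAS, hypothetical for POTH, tetracycline for cyclin, aminotransferase for 2-oxoglutarate) were removed after the names were seen. Named were the 3 members, the called transcripts of the gibberellin and the BEL and KNOX lists, and the 3 transcripts most like each member. The other named transcripts of these lists were chosen after their values were seen. No identifier had a match in the reference gene table, so product names are those of the files, and no positions or sequences are given.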

Additional observations from a re-analysis of the deposited data

Results flagged for a closer look

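The heat effect on Ga20 oxidase (PGSC0003DMG400027963) differed between 8 and 3 weeks by 5.40 ± 0.72 on the log2 scale in the interaction test (adjusted p = 0.00034, edgeR), with HT above NT in all libraries at 8 weeks and below NT in all libraries at 3 weeks. Under the other settings tried the difference was 5.09 on totals without the scaling, 6.13 with DESeq2 size factors and 5.36 with a replicate term, and it passed under each. Such separation was seen for 57.3% of the transcripts listed at 8 weeks and 30.5% of those listed at 3 weeks. Ga20 oxidase was selected by the authors as changed in opposite directions at the 2 ages in these same libraries. Its passing and the lack of overlap are therefore not independent evidence.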

How the results depend on the processing

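With DESeq2 size factors GID1 was 0.68 at 8 weeks and 0.94 at 3 weeks and Ga20 oxidase was 1.13 at 8 weeks, none passing; 1179 transcripts were called higher at 8 weeks and 155 at 3 weeks, of the gibberellin lists 4 and 2, and 159 were lower at 8 than at 3 weeks at NT. The same factors turned the interactions of GID1 to 0.46 and of Gast1 to 0.52, and the age difference of GID1 at NT to -0.0028; none of these passed on either scaling. Adjusted over the full number of tests the authors ran (34088 and 33777), GID1 (1.88 at 8 weeks, adjusted p = 0.13; 2.12 at 3 weeks, 0.12) and Gibberellin 2-oxidase (-1.71, 0.35) did not pass in edgeR, while Ga20 oxidase did at both ages (0.046 and 0.027). Calls were then 1788 higher and 1172 lower at 8 weeks, 11 and 6 of them gibberellin transcripts, and 162 higher and 121 lower at 3 weeks, with 2 gibberellin transcripts higher. The authors' own adjusted p-values for GID1, Gibberellin 2-oxidase and Ga20 oxidase, from a test not named, were all under 0.05. At a threshold of 0.01 GID1 at 8 weeks (1.88, 0.020) and Gibberellin 2-oxidase (-1.71, 0.013) did not pass. The cause was not tested.

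Same-numbered HT and NT libraries did not deviate together (r from -0.061 to 0.045 at 8 weeks and -0.059 to 0.16 at 3 weeks over transcripts), so the numbers were not taken as pairs. With the replicate block GID1 at 8 weeks was 1.81 (adjusted p = 0.072, edgeR), and 16 transcripts were higher and 4 lower at 8 than at 3 weeks at HT, against 31 and 12 without it. The block for age effects, the lack of a filter for the interaction and age effects, and scaled totals for age effects were chosen after seeing the data.

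With each library left out, GID1 was 1.51 to 2.16 at 8 weeks and Gibberellin 2-oxidase -2.10 to -1.44 at 3 weeks, and calls between ages at HT were 5 to 69 higher (69 without HT replicate 1 at 8 weeks) and 2 to 35 lower. The interactions ranged from -0.61 to 0.034 for GID1, -1.26 to 0.62 for Gast1 and -0.42 to 1.38 for the GRAS transcript PGSC0003DMG402009045, and the age difference of Ga20 oxidase at HT from -0.10 to 0.36, none passing. Depth limits GID1, at 3 to 14 counts per NT library.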
